A study of Mus musculus with 3 samples.

Results

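The insulin-like growth factor (IGF) system was followed in whole mouse lung of a wild type (WT) and of mice labelled as knockouts of the RNA-binding proteins Lin28a and Lin28b. Its 10 genes were chosen by name from the deposited table: the ligand genes Igf1 and Igf2, the receptor genes Igf1r and Igf2r, and the binding protein genes Igfbp2 to Igfbp7. All 10 had at least 1 row, out of 10761 named genes, and together they had 16 rows, since the table lists RefSeq transcripts. Values were RPKM, which scale reads to the length of the transcript and to sequencing depth, so levels can be set side by side between genes. There was 1 library labelled WT and 2 labelled as knockouts of both Lin28a and Lin28b (double knockout, DKO 1 and DKO 2). In the knockouts tamoxifen had activated a Cre recombinase driven by Nkx2-1, a lung epithelial gene, to remove the loxP-flanked exon 2 of each gene. All libraries were made from total RNA of whole lung on a mixed C57BL/6J background. The labels give no age, do not say whether the WT animal carried Cre or loxP alleles or received tamoxifen, and do not state if the DKO libraries are from different animals. The spread between them may therefore be partly technical.

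IGF1 and IGF2 are secreted growth factors that act through the tyrosine kinase receptor IGF1R, and both are needed for fetal growth. IGF2R, also the receptor for mannose 6-phosphate, takes IGF2 to lysosomes and so removes it. The IGF binding proteins hold the ligands outside the cell, carry them and control their access to the receptor. Lin28 proteins block the maturation of let-7 microRNAs and also bind messenger RNAs directly, Igf2 among them in other tissues, and Igf1r is a known let-7 target.

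Lin28b, a deleted gene, reached 0.449 (WT), 0.187 (DKO 1) and 0.59 RPKM (DKO 2), so it was not lower in the library labelled DKO 2 than in WT, and Lin28a was not analysed here. The level of the whole transcript over all cells of the lung checks the removal of 1 exon in epithelium only weakly. The approximate depth was 48700000 (WT), 30700000 (DKO 1) and 34200000 reads (DKO 2). The Y-linked gene Ddx3y was 0 (WT), 5.49 (DKO 1) and 2.64 RPKM (DKO 2), and Eif2s3y, Kdm5d and Uty were likewise listed at 0 in WT and above 0 in both DKO libraries, so sex and genotype cannot be told apart.

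Of the 10 genes, 6 reached a mean of 1 RPKM over the libraries and were tested: Igf1r, Igf2r, Igfbp2, Igfbp3, Igfbp4 and Igfbp5. That mean covers 1 WT and 2 DKO libraries, so Igfbp3, at 0.891 RPKM in WT, entered through the DKO libraries. Igf1r, at 0.498 RPKM in DKO 2, entered through the others. Igfbp2, Igfbp3 and Igfbp4 were above WT in both DKO libraries, Igf1r was below WT in both, and Igf2r and Igfbp5 lay on either side. None of the 6 passed the test (limma over all 2066 transcripts kept, Benjamini-Hochberg adjusted p = 0.999 for each), and 0 had an unadjusted p under 0.05. Over all transcripts 0.0968% passed, 0.0484% as higher and 0.0484% as lower. A share of 32.1% lay above WT in both DKO libraries, 31% below WT in both and 36.9% on either side, and the 3, 1 and 2 of 6 seen here are read against those shares. In a rescaling for haemoglobin, each library was divided by the share of its summed RPKM outside haemoglobin genes. With this haemoglobin rescaling, Igfbp5 too lay above WT in both. That share is of RPKM and not of reads, and a removal of haemoglobin reads was not run. The spread in this test comes from the 2 DKO libraries alone, with 1 residual degree of freedom, and the WT library is assumed to vary like them. The median difference of the 6 genes was 0.31 on the log2(RPKM + 1) scale, beside −0.01 over all tested transcripts.

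The stretches of 150 bases before the annotated start of the 3 genes that were above WT in both DKO libraries are shown to compare their start regions. They were read from RefSeq on GRCm38.p6 (mm10), 5′ to 3′ on the strand of the gene, at chr1:72824330-72824479 (plus strand, Igfbp2), chr11:7213924-7214073 (minus strand, Igfbp3) and chr11:99041094-99041243 (plus strand, Igfbp4). Capitals mark the motifs that were searched on both strands.
Igfbp2: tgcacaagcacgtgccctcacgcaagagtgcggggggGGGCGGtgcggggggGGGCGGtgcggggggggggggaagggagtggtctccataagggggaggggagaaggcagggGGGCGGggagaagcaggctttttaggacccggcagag
Igfbp3: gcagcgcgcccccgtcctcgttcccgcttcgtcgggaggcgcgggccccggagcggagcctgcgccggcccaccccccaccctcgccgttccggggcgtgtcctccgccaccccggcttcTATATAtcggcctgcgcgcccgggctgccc
Igfbp4: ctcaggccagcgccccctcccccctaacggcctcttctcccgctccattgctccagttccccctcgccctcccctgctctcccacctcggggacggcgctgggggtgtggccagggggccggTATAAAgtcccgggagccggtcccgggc
The 3 stretches differ in their motifs. Igfbp2 held 3 copies of GGGCGG, the core of the GC box, and no TATA motif, while Igfbp3 held TATATA and Igfbp4 held TATAAA, and neither of these held GGGCGG. Those matches began 30 bases before the start in Igfbp3 and 28 bases before it in Igfbp4. GGGCGG was found in 28.6% of 32851 stretches of the same length, TATAAA in 7.57% and TATATA in 2.97%. All 3 stretches were rich in G and C, at 72% (Igfbp2), 78.7% (Igfbp3) and 73.3% (Igfbp4), against a median of 54%. This was not particular to them. Igf1r, which was below WT in both, stood at 78.7% with 2 copies of GGGCGG, and Igf2r at 70.7% with 3. Igfbp5 had 55.3% and 0 copies. Igfbp2 has a further annotated start, and its stretch (chr1:72825237-72825386) held none of these motifs. A match describes the letters and shows no binding.

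The ligand genes could not be measured with this table. All 4 rows of Igf1 and all 3 rows of Igf2 were listed at 0 in WT, DKO 1 and DKO 2, and so were both rows of Igfbp7, a binding protein with low affinity for IGFs that is found in vessels. Igf2 is known for high levels in fetal tissues, and Gapdh, used by nearly every cell, stood at 0.0144, 0.115 and 0.185 RPKM in its better row, so a 0 here can be a failed estimate and no level or difference is given for these 3 genes.

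The zeros went with the number of rows of a gene. Of the rows of genes with 1 row, 44.5% were listed at 0 in all 3 libraries, against 84.5% for 2 rows, 89.3% for 3 rows and 93.5% for 4 rows. The 3 members with several rows were all at 0, whereas the 7 with 1 row were all above 0 in at least 1 library. In the GENCODE models of these transcripts, 2 of the 4 Igf1 rows (NM_001111274 and NM_010512) shared 100% of their exonic bases with other rows of the gene. Another Igf1 row, NM_001111275, had 5431 bases of its own, so sharing of bases does not cover every base of every row. The 3 Igf2 rows shared between 76.2% and 97%, and from 76.2% to 97% of their bases also lay under exons of other genes, Gm49394 and, for NM_001122736, also the antisense Igf2os. The Igfbp7 rows shared 92.2% and 99.2%. None of the exonic bases of the 7 genes with 1 row lay under an exon of another gene. Whether shared bases led to the zeros was not tested.

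**Figure D1:**
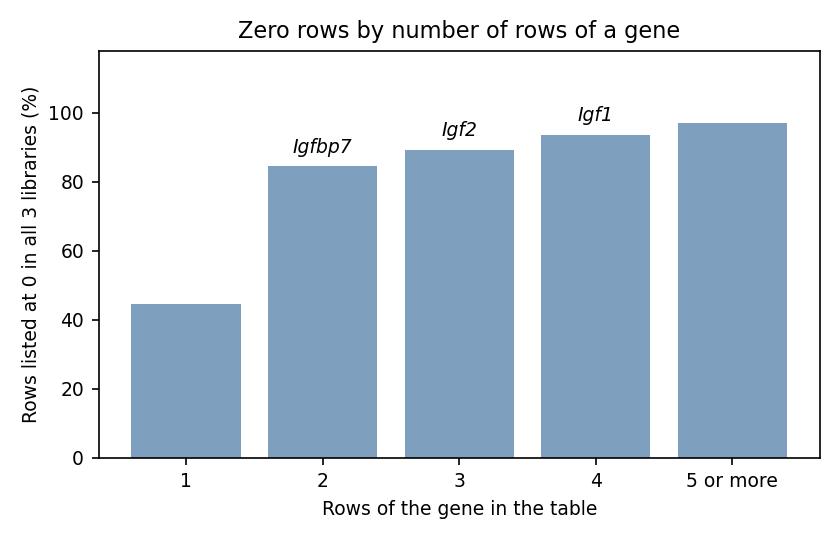
Share of rows listed at 0 in all 3 libraries (%, vertical axis) by the number of rows that the gene has in the table (horizontal axis). The share goes from 44.5% with 1 row to 97% with 5 or more, and the names mark the columns to which Igfbp7 (2 rows), Igf2 (3 rows) and Igf1 (4 rows) belong, all of whose rows were at 0.

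The receptor genes were both measured at low levels. Igf1r, the signalling receptor (NM_010513, GRCm38 chromosome 7, 67952257 to 68233668), reached 1.75 (WT), 1.37 (DKO 1) and 0.498 RPKM (DKO 2), or about 974, 478 and 194 reads. It was lower than WT in both, little so in DKO 1 and more in the library labelled DKO 2. The ratio to WT was 0.779 in DKO 1 (95% exact binomial interval 0.696 to 0.869) and 0.284 in DKO 2 (0.242 to 0.331). These intervals cover counting error only, since reads copied by PCR are not independent molecules. The log2 difference was −0.55 (SE 0.81, limma adjusted p = 0.999), so it did not exceed the spread between the DKO libraries. In RNA of whole lung, fewer cells of a type and less RNA per cell cannot be told apart.

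Igf2r, the receptor that clears IGF2 (NM_010515, chromosome 17, 12682406 to 12769706), reached 2.84 (WT), 4.49 (DKO 1) and 2.17 RPKM (DKO 2), or about 1230, 1225 and 659 reads. WT lay between the DKO libraries. The log2 difference was 0.12 (SE 0.68, limma adjusted p = 0.999), and with rescaling of each library to an equal sum (TPM) it was −0.06. The ratio of Igf1r to Igf2r within a library does not depend on how libraries are scaled. It was 0.617 (WT), 0.304 (DKO 1) and 0.23 (DKO 2), so Igf1r was lower relative to Igf2r in both DKO libraries than in WT. The ratio has 1 WT value and no test.

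**Figure D2:**
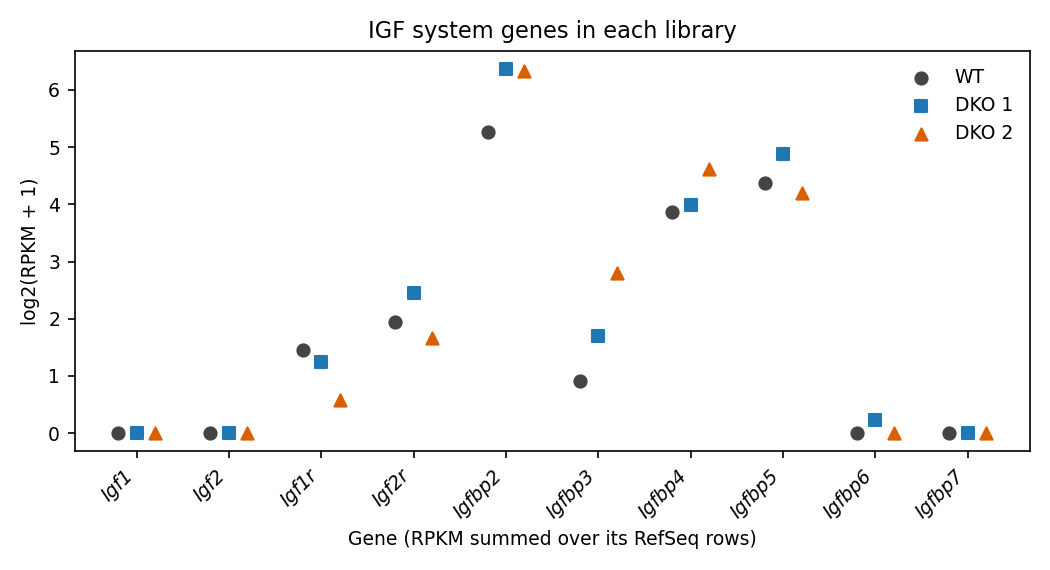
Level of each IGF system gene, as log2(RPKM + 1) summed over its rows (vertical axis), in WT, DKO 1 and DKO 2 (points, 1 library each). Among the genes with a value Igfbp2 is highest in every library, at 37.5, 81.5 and 79.8 RPKM. Igf1, Igf2 and Igfbp7 are listed at 0, which may be failed estimates.

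Of the 7 genes listed above 0 in at least 1 library, Igfbp2 had the highest level in every library. Its protein binds IGF2 with high affinity, and in adult lung its gene marks alveolar type 1 cells, the flat cells of gas exchange. Igfbp2 (NM_008342, chromosome 1, 72824480 to 72852474) reached 37.5 (WT), 81.5 (DKO 1) and 79.8 RPKM (DKO 2), or about 2387, 3269 and 3566 reads. Both DKO libraries were above WT by nearly the same factor. The ratio to WT was 2.17 in DKO 1 (95% exact binomial interval 2.06 to 2.29) and 2.13 in DKO 2 (2.02 to 2.24).

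The log2 difference of Igfbp2 was 1.08 (SE 0.78, limma adjusted p = 0.999). It was 1.1 in DKO 1 and 1.07 in DKO 2, and the SE is shared with transcripts of like level, so the closeness of the DKO libraries to each other counted little in the test. Igfbp2 was the 1 gene of the 6 that met a rule of size, applied on the log2(RPKM + 1) scale and not to the RPKM ratio. The rule asks for a shared direction and a difference from WT of 1 or more (2-fold) in each DKO library. The DKO libraries must also lie closer to each other than to WT. Over all tested transcripts 4.7% met it, 3.19% with higher and 1.5% with lower values. Igfbp2 met it narrowly: with rescaling to TPM the difference in the library labelled DKO 2 was 0.71. It missed the rule as well with quantile normalization, at 0.96 in DKO 2, and with a pseudocount of 5.

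Of 7 alveolar type 1 genes listed beside it, 3 were listed at 0 in every library and 2 were tested. Akap5 reached 44.4 (WT), 56.1 (DKO 1) and 90.8 RPKM (DKO 2), and Rtkn2 had 1.44, 2.3 and 1.72 RPKM. Both were above WT in both DKO libraries, and neither passed (limma adjusted p = 0.999). Aqp5 and Hopx were under the level for testing, and in both WT was not below both DKO libraries. Aqp5 had 0.053, 0.021 and 0.867 RPKM, and Hopx had 0, 0.0793 and 0 in its better row. The summed level of the list was 45.9, 58.5 and 93.3 RPKM, nearly all of it Akap5. Ager and Pdpn, defining markers of the cell type, were listed at 0. Ager has 4 rows and Pdpn 2, so these zeros can be failed estimates. The part of alveolar type 1 cells in the level of Igfbp2 was not tested. The order of libraries differed for general epithelial genes, whose sum over 10 listed genes was 36.4, 19 and 35.7 RPKM. Of its 4 tested genes 2 were below WT in both DKO libraries, 1 was above and 1 lay on either side, and none passed (limma adjusted p = 0.999). Epcam, an adhesion protein, reached 17.4 (WT), 6.75 (DKO 1) and 10.6 RPKM (DKO 2), and Foxa1, a transcription factor of lung epithelium, had 2.64, 0.798 and 0.688. The keratin gene Krt19 went the other way, with 3.08, 6.17 and 9.11 RPKM, and Krt18 had 12.2, 4.1 and 14.7.

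A marker of alveolar type 2 cells, the surfactant-producing cells, showed the largest difference of the tested markers. Sftpc, which encodes surfactant protein C, reached 369 (WT), 7.55 (DKO 1) and 0.0364 RPKM (DKO 2). Its log2 difference was −6.96 (SE 1.03, limma adjusted p = 0.0199), the 1 call of a lower level over all transcripts. No transcript was called without a filter, with quantile normalization or with TPM, Sftpc included. It was the 1 tested gene of 7 listed for the cell type, and Sftpb and Abca3 were listed at 0 in every library. Abca3 has 2 rows, so its 0 can be a failed estimate. The part of alveolar type 2 cells in the levels of the IGF genes was not tested.

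By distance over the 2 differences from WT, the tested transcripts most like Igfbp2 were Apoe, Rassf1 and Hsf1. Apoe, an apolipoprotein made by macrophages and liver among others, reached 18.6 (WT), 41.4 (DKO 1) and 41.7 RPKM (DKO 2) (distance 0.0592 in log2 units). Rassf1 had 0.667, 2.7 and 2.42 RPKM (distance 0.0596), and Hsf1, a heat shock transcription factor, had 1.28, 3.84 and 4 RPKM (distance 0.0632). Likeness over 3 libraries picks few among many transcripts and is a description only.

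Igfbp3 showed the largest ratio to WT of the 6 IGF system genes tested. Its protein is the main carrier of IGFs in blood, and its gene is active in endothelium and mesenchyme. Igfbp3 (NM_008343, chromosome 11, 7206086 to 7215498) reached 0.891 (WT), 2.24 (DKO 1) and 5.93 RPKM (DKO 2), or about 105, 167 and 491 reads. Both DKO libraries were above WT, and the library labelled DKO 2 was well above DKO 1. The ratio to WT was 2.52 in DKO 1 (95% exact binomial interval 1.96 to 3.25) and 6.65 in DKO 2 (5.38 to 8.3). The log2 difference was 1.33 (SE 0.72, limma adjusted p = 0.999), and it moved with the pseudocount, to 1.92 at 0.1 and 0.59 at 5, the WT level being low.

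Igfbp4, an inhibitory binding protein that proteases of the pappalysin family cleave (NM_010517, chromosome 11, 99040005 to 99052655), reached 13.5 (WT), 14.9 (DKO 1) and 23.5 RPKM (DKO 2). DKO 1 was close to WT, and the library labelled DKO 2 was higher. The ratio to WT was 1.11 in DKO 1 (95% exact binomial interval 1.04 to 1.17) and 1.75 in DKO 2 (1.65 to 1.84). The log2 difference was 0.45 (SE 0.74, limma adjusted p = 0.999).

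Igfbp5, a binding protein of mesenchyme and smooth muscle that also attaches to matrix (NM_010518, chromosome 1, 72858065 to 72874865), reached 19.6 (WT), 28.4 (DKO 1) and 17.3 RPKM (DKO 2). DKO 1 was above WT, with a ratio of 1.45 (95% exact binomial interval 1.4 to 1.5), and DKO 2 below, with 0.887 (0.85 to 0.925). The log2 difference was 0.17 (SE 0.75, limma adjusted p = 0.999), and −0.04 with rescaling to TPM. Of 7 tested mesenchymal genes, 4 were above WT in both DKO libraries, 0 below and 3 on either side. Col3a1, a collagen gene of that list, was among the last, with 38 (WT), 56.2 (DKO 1) and 33.9 RPKM (DKO 2). Col1a1, Col1a2, Twist2 and Tbx5 were above WT in both, and Tbx5, a transcription factor of lung mesenchyme, was highest in DKO 2, with 1.61, 2.51 and 3.61 RPKM. The summed level of 11 mesenchymal genes was 93.8, 146 and 82.6 RPKM, much of it from Col3a1, and the part of mesenchymal cells in the level of Igfbp5 was not tested. Pdgfra, a defining marker of that list, was at 0.00313, 0.0398 and 0 RPKM in the better of its 2 rows, which can be a failed estimate.

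Igfbp6, which prefers IGF2, was near 0 throughout. It was listed at 0 in WT and DKO 2 and had 0.177 RPKM in DKO 1, or about 6 reads, so no difference is drawn from it. Its mean was under the level for testing.

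**Figure D3:**
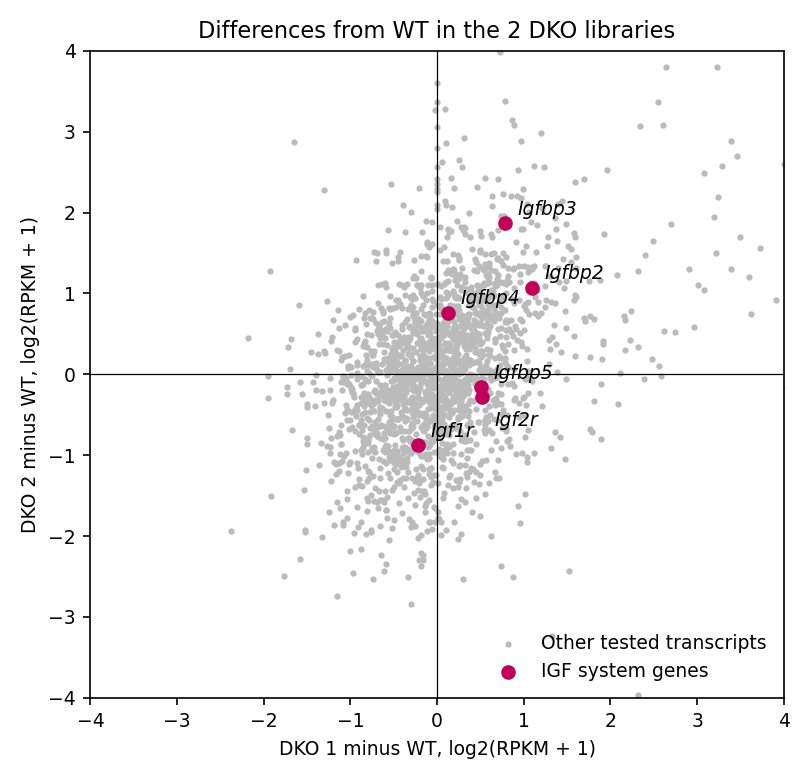
Difference from WT in DKO 1 (horizontal axis) and DKO 2 (vertical axis), both on the log2(RPKM + 1) scale, for the 6 IGF system genes tested (large points) and the other tested transcripts (small points), with 10 transcripts beyond the axes. Igfbp2, Igfbp3 and Igfbp4 lie above 0 on both axes and Igf1r below 0 on both, within the cloud of all transcripts.

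By level within WT, the order was Igfbp2, Igfbp5, Igfbp4, Igf2r, Igf1r, Igfbp3 and Igfbp6. With 1 WT library no spread can be given for that order. In DKO 1 the order was Igfbp2, Igfbp5, Igfbp4, Igf2r, Igfbp3, Igf1r and Igfbp6, and in DKO 2 it was Igfbp2, Igfbp4, Igfbp5, Igfbp3, Igf2r, Igf1r and Igfbp6. Between the DKO libraries, the neighbours Igfbp4 and Igfbp5 changed places, with 14.9 and 28.4 RPKM in DKO 1 and 23.5 and 17.3 in DKO 2. Igf2r and Igfbp3 changed places as well, so neither pair has an order beyond the spread of the knockout libraries.

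The summed level of the binding protein genes was 71.4 (WT), 127 (DKO 1) and 127 RPKM (DKO 2). Igfbp2 made up 52.5% of that sum in WT, 64.1% in DKO 1 and 63% in DKO 2. Igfbp5 made up 27.4%, 22.3% and 13.7%, and Igfbp3 1.25%, 1.76% and 4.68% in the same order. These shares do not depend on how libraries are scaled. The share of Igfbp2 and of Igfbp3 was higher, and that of Igfbp5 lower, in both DKO libraries than in WT. Igfbp4 stood at 18.9%, 11.7% and 18.6%. Igfbp7 is counted at 0 here, so the shares are those of the genes with a value.

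**Figure D4:**
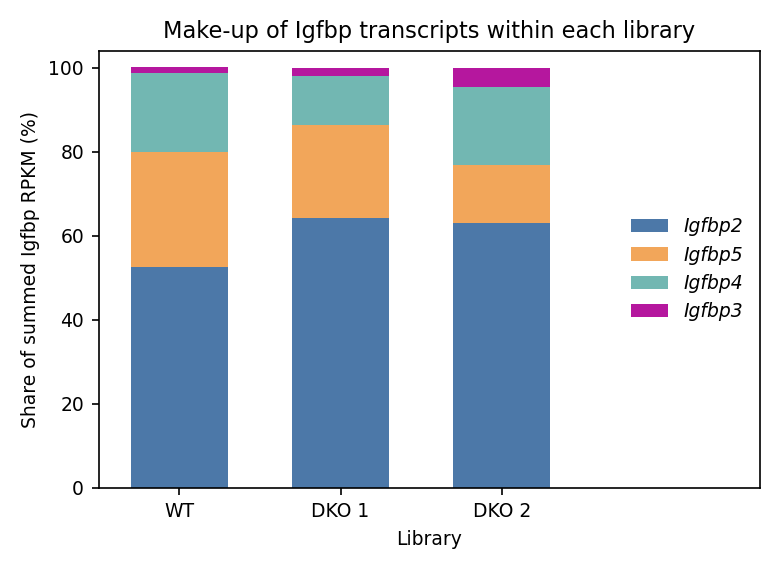
Share of each gene in the summed RPKM of Igfbp2 to Igfbp7 (%, vertical axis) in WT, DKO 1 and DKO 2 (1 bar per library). Igfbp2 takes 52.5% in WT and 64.1% and 63% in the DKO libraries, and Igfbp6 and Igfbp7 are too low to be drawn.

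Neighbouring genes of the family were set side by side. Igfbp2 and Igfbp5 are 5590 bases apart on chromosome 1, and the ratio of Igfbp2 to Igfbp5 was 1.92 (WT), 2.88 (DKO 1) and 4.6 (DKO 2). Igfbp1 and Igfbp3 are 3539 bases apart on chromosome 11. Igfbp1, made chiefly by liver, was listed at 0 in WT and DKO 1 and had 0.462 RPKM in DKO 2, or about 24 reads. The library labelled DKO 2 also had the highest levels of liver genes. Alb, which encodes serum albumin, stood at 0 (WT), 0.654 (DKO 1) and 14.8 RPKM (DKO 2). The summed level of 8 liver genes, 7 of them with a row, was 7.55, 11.4 and 183 RPKM. Heart muscle genes were highest there too, with a sum over 7 listed genes of 21.1, 13.7 and 81.8 RPKM, and so were 5 listed skeletal muscle genes, with 0.16, 0.023 and 8.22. Myl2, a myosin light chain of heart, and Tnnc2, a troponin of fast skeletal muscle, were listed at 0 in WT and DKO 1 and had 4.9 and 7.31 RPKM in DKO 2. The part of liver, heart or skeletal muscle tissue in the levels of Igfbp1, Igfbp3 and Igfbp4 in that library was not tested. Haemoglobin genes took 5.36%, 7.24% and 21% of all RPKM in WT, DKO 1 and DKO 2. Most of this was the globin gene Hbb-y, at 18354, 25259 and 91331 RPKM. Both rows of the globin gene Hba-a1 were listed at 0, which can be a failed estimate. The share and the haemoglobin rescaling thus count Hba-a1 at 0. The part of the haemoglobin share in the lower Igf1r of DKO 2 was not tested either. With the haemoglobin rescaling Igf1r remained below WT in both DKO libraries.

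Endothelial genes were listed as possible company of Igfbp3. Of 10 listed, 5 were above 0 and 2 were tested. Cdh5, the cadherin of endothelial junctions, reached 2.39 (WT), 2.53 (DKO 1) and 2.19 RPKM (DKO 2), and Cldn5, a tight junction protein, had 6.89, 7.6 and 10.4 RPKM. The sum of the list was 10.5, 11.5 and 14.5 RPKM. Smooth muscle genes, 6 listed and 4 tested, summed to 26.3, 30.1 and 26 RPKM. Of the 4, 2 were above WT in both DKO libraries, 1 was below and 1 lay on either side. Acta2, among those above, had 4.45, 7.28 and 11 RPKM, and Tagln, the 1 below, had 16.5, 14.8 and 8.77. Immune genes had higher sums in the DKO libraries, at 41.7, 379 and 193 RPKM over 10 listed genes. Of 6 tested, 5 were above WT in both DKO libraries and 1, C1qc, lay on either side, with 9.43, 25.1 and 0.111 RPKM. Csf1r, under the level for testing, also lay on either side, with 0.376, 0.69 and 0.136. Much of the sum came from Tyrobp, at 24.9, 219 and 52.3 RPKM, and S100a8, at 3.04, 72.2 and 108. Ptprc, the pan-leukocyte marker, has 3 rows and was listed at 0, which can be a failed estimate. The part of immune cells in the levels of Igfbp2 and Igfbp3 was not tested. No gene of the mesothelial list had a row.

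The study names let-7 in its title, so matches to the let-7 seed were sought in the 3′ untranslated regions of the IGF genes. The mature let-7a is shown with the matches of the 3 tested genes that held any, Igf1r being known as a let-7 target, with the seed (bases 2 to 8) and its match in capitals. The microRNA is from RefSeq (GRCm38.p6) and the sites are from GENCODE transcripts on GRCm38.
mmu-let-7a-5p: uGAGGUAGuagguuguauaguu
Igf1r, first match: acatttatCTACCTCactcttg
Igf1r, second match: gagttcatCTACCTCtgggatt
Igf2r: tccgtgccCTACCTCatctctg
Igfbp5: aggtcagcCTACCTCccccaaa
Of the 6 tested genes, Igf1r had 2 matches to CTACCTC on the transcript strand, at bases 2724 to 2730 and 6830 to 6836 of a region of 7267 bases, and Igf2r and Igfbp5 had 1 each. Igfbp2, Igfbp3 and Igfbp4 had 0. In the main setting the 3 genes without a match were those above WT in both DKO libraries. Of the 3 with a match Igf1r was below WT in both. With the haemoglobin rescaling Igfbp5, which has a match, also lay above WT in both. This split was not tested. Over all tested transcripts with such a region, 6.76% of 2026 had a match, and these regions were longer, with a median of 2202 bases against 729. Of the 137 with a match, 34.3% were above WT in both DKO libraries and 27.7% below, beside 32% and 31.6% of the 1889 without. A match of letters shows no binding.

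Genes around the receptor were taken from a list of 63, of which 41 had a row and 13, with 1 transcript each, were tested. None passed (limma adjusted p = 0.999 for each), 1 had an unadjusted p under 0.05, and 0 met the rule of size. By RPKM, Grb2 had ratios to WT of 2.49 in DKO 1 and 3.29 in DKO 2. On the log2(RPKM + 1) scale of the rule its difference in DKO 1 was 0.83. Of the 13 transcripts 8 were above WT in both DKO libraries and 3 below, where 32.1% and 31% of all tested transcripts did. Their median log2 difference was 0.48, beside −0.01 over all. Irs1 and Ghr, both among the 8, were at 0.975 and 0.431 RPKM in WT and passed the filter through DKO libraries. Gsk3a, among the 3, was at 0.693 RPKM in DKO 1. The shares over all tested transcripts come from the same filter. The part of the filter in the excess above WT was not tested, and the excess is a description only.

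Among adaptors next to the receptors, Irs1, which docks PI3 kinase, reached 0.975 (WT), 1.25 (DKO 1) and 2.39 RPKM (DKO 2), and Grb2, which links receptors to Ras, had 1.11, 2.76 and 3.65. Both were above WT in both DKO libraries. Insr, the insulin receptor, which also binds IGF2, was under the level for testing, with 0.536, 0.251 and 0.859 RPKM. Igf2bp1, an RNA-binding protein of fetal tissues that binds Igf2 messenger RNA and is a known let-7 target, had 2.39, 2.06 and 2.69 RPKM. Its 3′ untranslated region held 4 matches to the let-7 seed, and WT lay between the DKO libraries. Its log2 difference was −0.01 (SE 0.67, limma adjusted p = 0.999).

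In the Ras and MAP kinase branch, Map2k1 reached 3.33 (WT), 3.92 (DKO 1) and 7.87 RPKM (DKO 2), and Mapk3 had 11.2, 11.5 and 22.6. Nras had 8.71, 7.67 and 11 RPKM. Map2k1 and Mapk3 were close to WT in DKO 1 and higher in the library labelled DKO 2.

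In the PI3 kinase and growth branch, Eif4ebp1, the repressor of translation that mTOR switches off, stood furthest from WT. It reached 24.9 (WT), 192 (DKO 1) and 62.9 RPKM (DKO 2), and its log2 difference was 2.1 (SE 0.88, unadjusted p = 0.0339 and adjusted p = 0.999 with limma). Both DKO libraries were above WT but far from each other. Rps6, a ribosomal protein that the same pathway phosphorylates and whose reads may be shared with pseudogenes, reached 2707 (WT), 1510 (DKO 1) and 1750 RPKM (DKO 2), below WT in both. Rps6kb1, its kinase, had 2.66, 3.77 and 3.12 RPKM, above WT in both. Pik3ca, a catalytic subunit of PI3 kinase, had 2.01, 1.81 and 1.49 RPKM, and Gsk3a, a kinase that Akt inhibits, had 2.22, 0.693 and 1.37. Both were below WT in both DKO libraries.

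Among the proteases of the list, Adamts1, which acts on matrix, was tested, at 1.51 (WT), 2.96 (DKO 1) and 3.08 RPKM (DKO 2). Its ratio to WT was 1.97 in DKO 1 (95% exact binomial interval 1.71 to 2.27). Pappa2, a pappalysin that cleaves IGFBP3 and IGFBP5, was under the level for testing, with 0.184, 0.459 and 0.00341 RPKM. It was nearly at 0 in the library labelled DKO 2, where about 1 read stood against 134 in DKO 1.

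**Figure D5:**
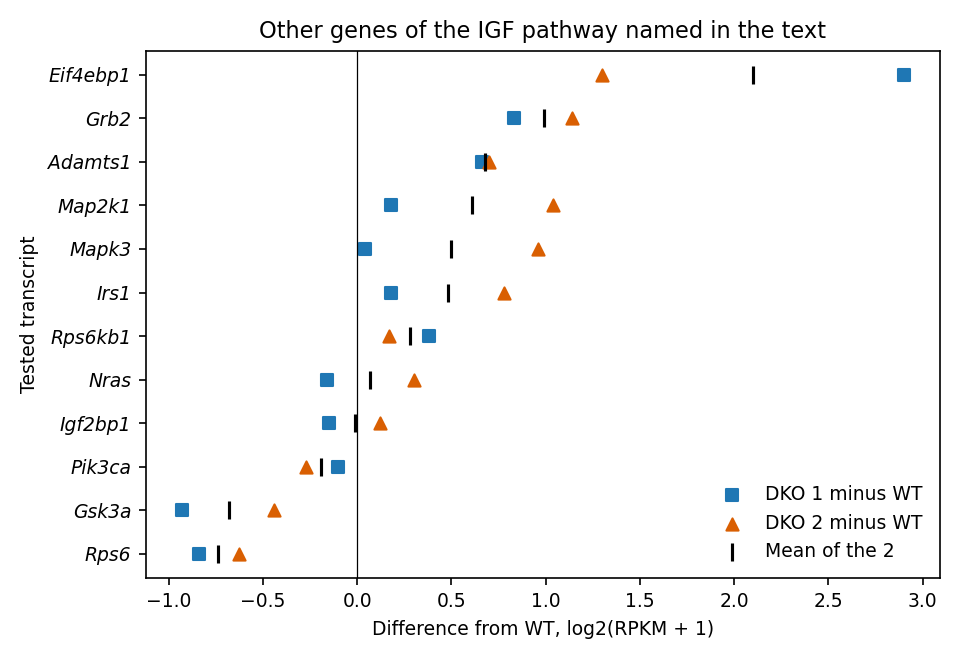
Differences from WT on the log2(RPKM + 1) scale (horizontal axis) for the tested transcripts of the other IGF pathway genes named in the text, with DKO 1 (squares), DKO 2 (triangles) and their mean (bars). Eif4ebp1 has the highest mean, 2.1, and Rps6, Gsk3a and Pik3ca lie below 0 in both libraries.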

How the data were processed

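RNA sequencing libraries of whole lung (1 WT, 2 DKO) were made from Trizol-extracted RNA with the SMARTer Ultra Low Input kit, per the labels' protocols. Per the submitters' processing notes, cutadapt, TopHat2, HTSeq and edgeR were used with genome build mm10. Their versions and order, the annotation and whether strand was used are not stated in the sources at hand, so overlapping genes are uncertain. The authors deposited RPKM values for 16383 RefSeq transcripts, named here by RefSeq (16151) and GENCODE M21 (77), with 155 left unnamed.

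Values were analysed as log2(RPKM + 1), which understates differences of low genes, over the 2066 transcripts whose mean was 1 RPKM or more. Testing used limma 3.58.1 (R 4.3.3, trended empirical Bayes, two-sided, Benjamini-Hochberg threshold 0.05). The procedure was checked on simulated data. Reads were approximated from the commonest low product of RPKM and transcript length, and 44.2% to 45.8% of values of up to 100 reads lay within 0.05 of a whole read, where 10% would by chance. Genes named besides the members were Lin28b, markers set beside a result, the 12 reported pathway transcripts of highest mean RPKM and the 3 transcripts nearest to the member of highest level and largest shared difference, both Igfbp2. Some genes of the pathway list are not reported here and were left out of its counts. Insr, Pappa2, Igfbp1, Ghr, Wfdc17 and the markers singled out from their lists were chosen after their values were seen. Members and lists were chosen with earlier results of these data known. Alternatives changed the pseudocount, filter, scaling, moderation, rule of size, summing of rows and libraries used.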

Additional observations from a re-analysis of the deposited data

How the results depend on the processing

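None of the 6 tested members passed limma under any of 10 other settings, with adjusted p from 0.922 to 1, and with a pseudocount of 0.1 a single member, Igfbp3, had an unadjusted p under 0.05. Igfbp2 ranged from 0.87 to 1.23 on the log2 scale, Igfbp3 from 0.59 to 1.92, Igfbp4 from 0.24 to 0.59 and Igf1r from −0.99 to −0.19, all with their direction kept. Igf1r, Igf2r and Igfbp3 gave no value with a filter of 5 RPKM. Rescaling to TPM moved the median of all transcripts from −0.01 to −0.22 and the haemoglobin rescaling moved it to 0.11. With TPM the difference of Igf2r was −0.06, that of Igfbp5 −0.04 and that of Nras −0.14. With the haemoglobin rescaling that of Igf2bp1 was 0.10. These reversals were of differences near 0. The number of members past the rule of size was 0 with a pseudocount of 5, with quantile normalization and with TPM, and ranged from 1 to 2 when a DKO library was left out, values with no test. Without DKO 1 these were Igfbp2 and Igfbp3, and without DKO 2 Igfbp2 alone. Igfbp3 differed from WT by 0.78 in DKO 1 on the log2(RPKM + 1) scale of the rule. Over all transcripts limma called 2, against 13 at a pseudocount of 0.1 and 1 at a pseudocount of 5. The test called 10 at a filter of 5 RPKM, 12 with median scaling and 15 with the haemoglobin rescaling. It called 0 without a filter, with quantile normalization and with TPM, where 260, 45 and 54 transcripts in turn had an unadjusted p under 0.05. The cause of these changes was not tested. No paired analysis was possible because the groups share fewer than 2 replicate numbers. With a single WT library, differences of the size seen in the members were not detectable, and larger ones went uncalled as well. Outside the members, Wfdc17 differed by 3.83 on the log2 scale in the main setting and was not called.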
